A study of Mus musculus with 7 samples.

Results

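Purine nucleotides, the building blocks of RNA and DNA and the energy carriers ATP and GTP, are made in the cytosol on a ribose phosphate that comes as phosphoribosyl pyrophosphate (PRPP). A chain of enzymes builds the ring up to inosine monophosphate (IMP), which is then turned into AMP or GMP. Cells also recover bases and nucleosides by salvage, and 5′-nucleotidases remove the phosphate again. The 10 genes described here are all present among the 12958 rows of the tables: Prps1, which makes PRPP, 6 genes of the route from PRPP to IMP (Ppat, Gart, Pfas, Paics, Adsl and Atic), Impdh2 and Gmps of the GMP branch, and Nt5c2, the cytosolic 5′-nucleotidase that acts on IMP and GMP. They were listed by name but chosen by a readout, the higher log2 expression of Nt5c2 and Ppat in knockdown than in control libraries, so every difference of these 10 genes between the groups is a description and supports nothing by itself.

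The RNA came from glomeruli, the filtering tufts of the kidney, isolated from male BALB-C mice aged 14 weeks, and was sequenced as 7 libraries, 1 per animal. All mice had doxycycline in food and water for 6 weeks, starting at 8 weeks of age. The 3 knockdown libraries are labelled as 6-weeks Shroom3 knockdown and came from mice with an siRNA transgene, and the 4 control libraries came from littermates that lacked the siRNA sequence. Doxycycline was thus common to both groups. The promoter and the cell types that drove the transgene, which limit what the groups model, were not stated in the labels.

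Values are expression per gene on a log scale, read as log2, and library medians ran from 9.15 to 9.16. Neither read depth nor the use of gene length is known, so levels were compared between libraries, and a mean over the libraries served only to pick which list genes are named. Shroom3 itself was at 10.80, 10.91 and 10.89 in the knockdown and 10.94, 10.85, 11.36 and 11.06 in the control libraries, and did not pass the test (limma, Benjamini-Hochberg adjusted p = 0.417), so the groups are named as labelled. All 7 podocyte, 7 endothelial and 5 mesangial markers of glomeruli were present, with 5, 7 and 4 of them negative and median differences of -0.21, -0.23 and -0.10. Of these 1 passed, the mesangial Serpine2, and the summed levels of each list overlapped between the groups. So were all 14 proximal tubule markers, with the lowest marker mean at 9.56: 13 of these had a negative difference, 5 passed, and their summed level was 17.17 to 17.53 in knockdown and 17.54 to 17.94 in control libraries (log2 of the sum). Of 9 distal nephron and collecting duct markers, 2 passed, both higher, and the sums overlapped, at 16.59 to 16.84 against 16.43 to 16.83. In RNA of whole glomeruli, fewer cells of a type and less RNA per cell cannot be told apart. The part of these cell types in the differences below was not tested. Titles came in a pair of styles: 5 libraries were titled G (2 knockdown, 3 control) and the other two, knockdown replicate 3 and control replicate 4, were titled CB6.

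Among the 10 genes, Nt5c2 and Ppat stood clearly higher in knockdown glomeruli, Paics less so, and the other seven differed by -0.18 to 0.11. Nt5c2 differed by 0.70 (1.62-fold) and Ppat by 0.64 (1.56-fold) on the log2 scale, and Paics by 0.27 (1.20-fold). Both Nt5c2 and Ppat were past an adjusted p of 0.05 in the fit across all genes, which makes 2 of 10, while 0.996% of all genes were called higher, 2.02% lower and 3.02% in either direction. Because the list was drawn up around these genes, nothing is read from that count. For 3 of the 10, Ppat, Paics and Nt5c2, every knockdown library lay above every control library, as was the case for 10.8% of all genes (18.4% in either direction). The median difference was 0.09 over the 10 genes and 0.02 over all genes.

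**Figure D1:**
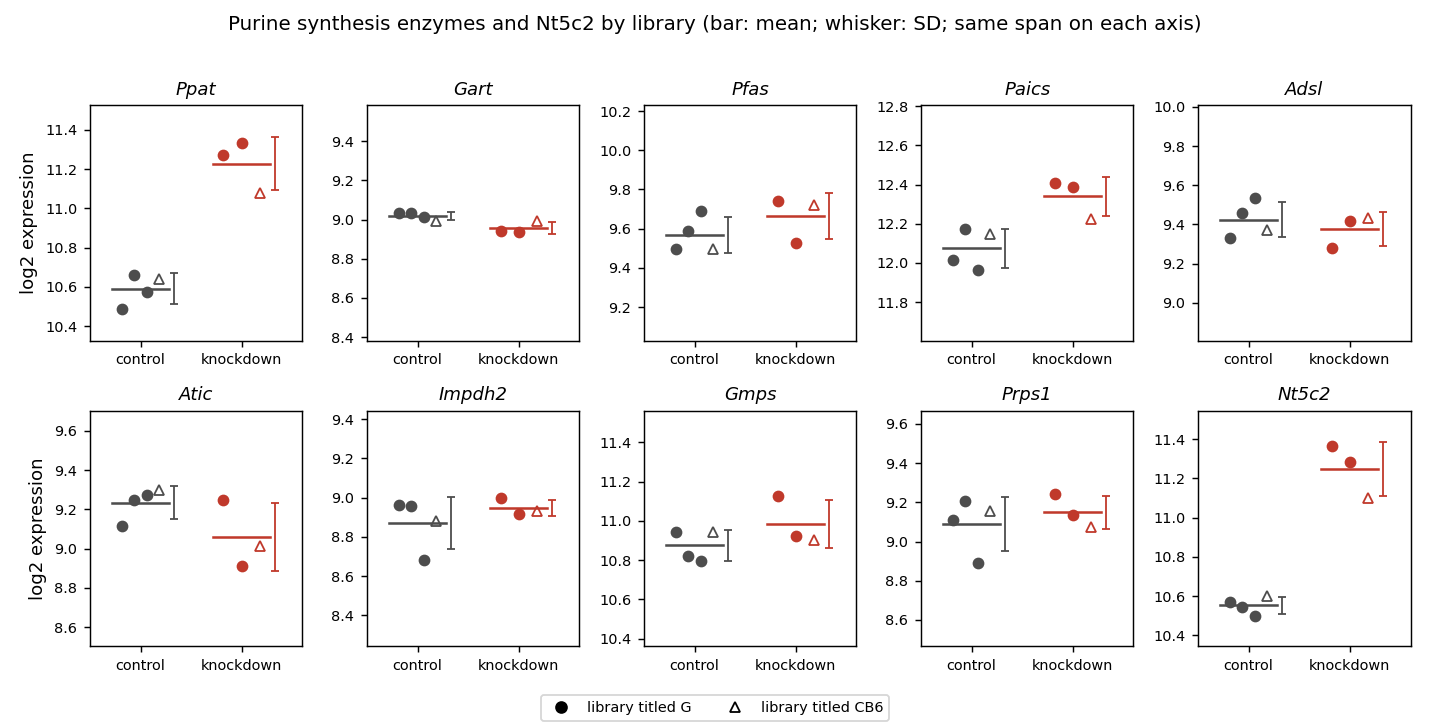
Log2 expression (vertical axis) of the 10 genes in each control and knockdown library. Filled circles are libraries titled G, open triangles those titled CB6, horizontal bars group means and whiskers the SD (n = 4 and n = 3). The groups are apart for Ppat, Paics and Nt5c2 and overlap or touch for the other seven, and the CB6 knockdown library is the lowest of its group for these 3 genes.

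Prps1 encodes phosphoribosyl pyrophosphate synthetase, which supplies the PRPP on which the ring is built. Prps1 (ENSMUSG00000031432.3; GRCm38, chromosome X, 140456613 to 140476140, plus strand) was at 9.24, 9.14 and 9.07 in the knockdown libraries and at 9.11, 9.21, 8.89 and 9.16 in the control libraries. The groups overlapped over nearly their whole range, with a difference of 0.06 (95% CI -0.15 to 0.27). The difference was 0.12 within the libraries titled G and -0.08 within the CB6 pair, and leaving out control replicate 3 gave -0.01, knockdown replicate 1 gave 0.01, and control replicate 2 or knockdown replicate 3 gave 0.10. The relatives Prps2 and Prps1l3, similar enough in sequence for reads to be hard to assign, differed by 0.09 and 0.13 and did not pass (limma, Benjamini-Hochberg adjusted p = 0.550 and 0.297).

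Ppat encodes the amidotransferase of the first committed step, which puts an amino group from glutamine on PRPP and is held back by the purine nucleotides at the end of the route. Ppat (ENSMUSG00000029246.14; chromosome 5, 76913249 to 76951578, minus strand) was at 11.27, 11.33 and 11.08 in the knockdown libraries. The control libraries held 10.49, 10.66, 10.57 and 10.64. The lowest knockdown library, the one titled CB6, was still above the highest control. The means were 11.23 ± 0.13 (SD, n = 3) and 10.59 ± 0.08 (SD, n = 4), a difference of 0.64 (SE 0.07, 95% CI 0.46 to 0.81). Within the libraries titled G the difference was 0.73, and within the CB6 pair 0.44. Leaving out each library in turn gave 0.58 to 0.71.

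Paics, which encodes the bifunctional carboxylase and synthetase of the middle of the route, lies head to head with Ppat. The 2 gene models run in opposite directions and share 272 exonic bases (chromosome 5, 76951307 to 76951578). The labels do not say whether reads were counted by strand, so reads from this stretch cannot be assigned to one gene with certainty. Paics (ENSMUSG00000029247.17; chromosome 5, 76951307 to 76967509, plus strand) was at 12.41, 12.39 and 12.23 in knockdown against 12.02, 12.17, 11.97 and 12.15 in control libraries. The groups did not overlap, but the margin between the lowest knockdown and the highest control was small beside that of Ppat. The means were 12.34 ± 0.10 (SD, n = 3) and 12.07 ± 0.10 (SD, n = 4), a difference of 0.27 (SE 0.07, 95% CI 0.10 to 0.43), and Paics was not among the genes called across the table. Its difference was 0.35 among the libraries titled G and 0.08 in the CB6 pair.

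**Figure D2:**
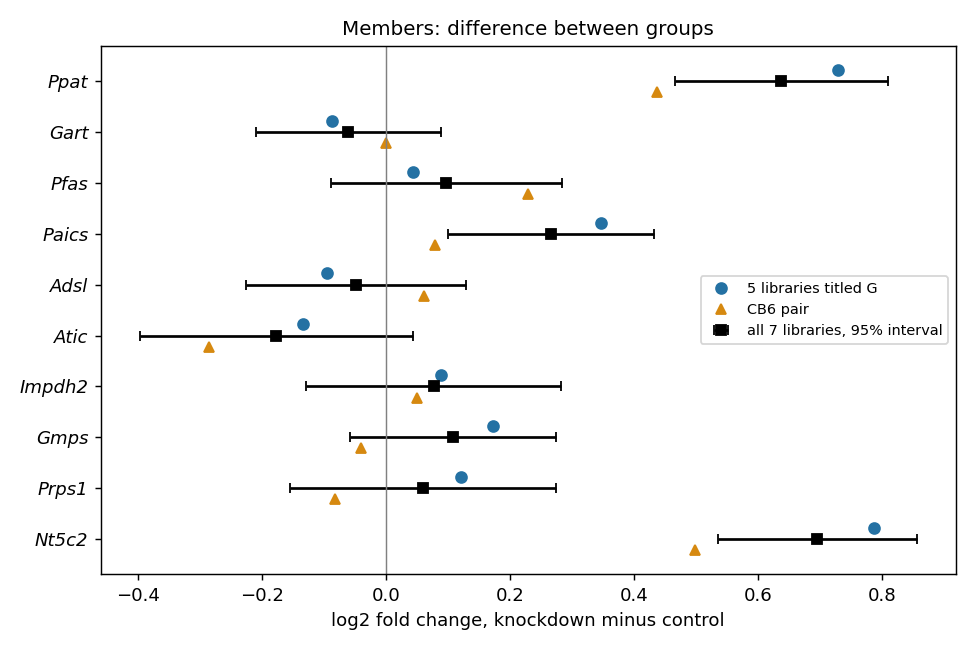
Difference between group means (horizontal axis, log2, knockdown minus control) for each of the 10 genes. Squares with bars are all 7 libraries with the 95% interval, circles the 5 libraries titled G, triangles the CB6 pair. Ppat and Nt5c2 lie at 0.64 and 0.70, and Paics at 0.27 has its CB6 value at 0.08.

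Because Ppat and Paics share their start region, the promoter windows of the 10 genes (RefSeq, GRCm38.p6, from 250 bases before to 50 after each start) were searched on both strands for the letters CACGTG, the E-box read by the MYC and MITF families, and GCGCATGC, the core of the site of the factor NRF1. All but Pfas had a window, 9 genes with 15 windows. CACGTG was in a window of 4 of these 9 genes (Atic, Impdh2, Nt5c2 and Paics), and in 8.09% of the 27025 genes in the table. For Nt5c2, with several annotated starts, it was in a single window, inside an intron of the longest model. GCGCATGC was in 1 of the 9 genes, Ppat, and in 3.05% of all genes. The motifs were chosen with these sequences known, so nothing is read from these shares. A gene with more windows also has more chances of a match, and all 27025 genes had 32851 windows. These matches are letters in a window, and do not show that a factor binds. The 30 bases around each match in the 3 genes that stood apart between the groups are shown on their gene's strand, 5′ to 3′, with the match in capitals.
Paics, chr5:76951087-76951116, plus strand, 203 bases before its start and in an exon of Ppat: cgcctcggaaagCACGTGgagggacctgct
Ppat, chr5:76951537-76951566, minus strand, 23 bases after its start and in exons of both genes: caaaaagtggcGCGCATGCtgcaaggcccc
Nt5c2, chr19:46969745-46969774, minus strand, 194 bases before an internal start: cactttgcttccCACGTGggtactgattaa
For comparison, these are the E-box matches of a member that was level between the groups and of one whose knockdown mean was lower. Distances here and above count from RefSeq starts. The start of Atic given below with its values, 71557150, lies inside the match shown.
Impdh2, chr9:108560314-108560343, plus strand, 110 bases before its RefSeq start: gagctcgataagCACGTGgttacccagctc
Atic, chr1:71557137-71557166, plus strand, 7 bases before its start: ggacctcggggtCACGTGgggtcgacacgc
The same letters thus stood in windows of genes whose differences ran from -0.18 (Atic) through 0.08 (Impdh2) and 0.27 (Paics) to 0.70 (Nt5c2).

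Gart, a trifunctional enzyme that carries out several of the early reactions, had the smallest SDs of the 10 genes, 0.03 in knockdown and 0.02 in control libraries. Gart (ENSMUSG00000022962.15; chromosome 16, 91621186 to 91646952, minus strand) was at 8.94, 8.93 and 8.99 in knockdown and at 9.03, 9.03, 9.01 and 8.99 in control libraries. The knockdown libraries lay at or below the controls. The 2 libraries titled CB6 held the identical value to every deposited digit, so that the groups touched. The difference was -0.06 (95% CI -0.21 to 0.09). Son, which starts 553 bases away on the opposite strand, differed by 0.05 (limma, Benjamini-Hochberg adjusted p = 0.746).

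Pfas, the amidotransferase between the reactions of Gart, also overlapped between the groups. Pfas (ENSMUSG00000020899.16; chromosome 11, 68985697 to 69008460, minus strand) was at 9.74, 9.53 and 9.72 in knockdown and at 9.50, 9.59, 9.69 and 9.49 in control libraries. Each group held both high and low libraries, and the difference was 0.10 (95% CI -0.09 to 0.28). It was 0.04 within the libraries titled G and 0.23 within the CB6 pair, and 0.06 and 0.17 without knockdown replicates 1 and 2.

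The genes of the last part of the route, Adsl and Atic, had knockdown means below those of control. Adsl encodes adenylosuccinate lyase, which acts both before IMP and on the way to AMP. Adsl (ENSMUSG00000022407.10; chromosome 15, 80948490 to 80970946, plus strand) was at 9.28, 9.42 and 9.43 in knockdown and at 9.33, 9.46, 9.54 and 9.37 in control libraries, a difference of -0.05 (95% CI -0.23 to 0.13) between overlapping groups. Without knockdown replicate 1, its lowest library, the difference of Adsl was 0.00047, and without control replicate 1 it was -0.08. Atic, the bifunctional enzyme of the last steps to IMP, had the most negative difference of the 10 genes, at -0.18 (95% CI -0.40 to 0.04). Atic (ENSMUSG00000026192.13; chromosome 1, 71557150 to 71579631, plus strand) was at 9.25, 8.91 and 9.01 in knockdown and at 9.11, 9.25, 9.28 and 9.30 in control libraries. Knockdown replicate 1 was inside the control range and equal to control replicate 2 in every deposited digit, while the other two knockdown libraries were below all controls. The difference of Atic was -0.27 without knockdown replicate 1 and -0.10 without knockdown replicate 2.

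The mean over the 6 genes of the route to IMP shows how far Ppat sets that average. With all 6 genes it was 10.15, 10.09 and 10.08 in knockdown and 9.91, 10.03, 10.01 and 9.99 in control libraries. With Ppat left out it was 9.92, 9.84 and 9.88 against 9.80, 9.90, 9.90 and 9.86. The groups were apart with Ppat and overlapped without it.

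In the GMP branch, Impdh2 encodes the IMP dehydrogenase that opens the branch and Gmps the synthetase that completes GMP. Impdh2 (ENSMUSG00000062867.13; chromosome 9, 108560286 to 108565584, plus strand) was at 8.996, 8.92 and 8.93 in knockdown and at 8.96, 8.96, 8.68 and 8.88 in control libraries. Control replicate 3 lay below the rest, and the difference of 0.08 (95% CI -0.13 to 0.28) was 0.01 without it. Gmps (ENSMUSG00000027823.9; chromosome 3, 63976106 to 64022579, plus strand) was at 11.13, 10.93 and 10.90 in knockdown and at 10.94, 10.82, 10.79 and 10.94 in control libraries. A single knockdown library stood above the controls, and the difference was 0.11 (95% CI -0.06 to 0.27), or 0.04 without that library, knockdown replicate 1. The relative Impdh1 differed by -0.0021 (limma, Benjamini-Hochberg adjusted p = 0.993).

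Nt5c2 had the widest separation of the 10 genes. The enzyme takes the phosphate off IMP and GMP, can pass it to other nucleosides, and is known for inactivating thiopurine drugs. Nt5c2 (ENSMUSG00000025041.17; chromosome 19, 46883317 to 47015153, minus strand) was at 11.36, 11.28 and 11.10 in the knockdown libraries and at 10.57, 10.54, 10.50 and 10.60 in the control libraries. The controls lay within a narrow band, and all knockdown libraries lay well above it. The means were 11.25 ± 0.14 (SD, n = 3) and 10.55 ± 0.04 (SD, n = 4), a difference of 0.70 (SE 0.07, 95% CI 0.54 to 0.86). It was 0.79 within the libraries titled G, 0.50 within the CB6 pair and 0.64 to 0.77 with each library left out in turn. The gene model shares 456 exonic bases at its far start with Ina on the opposite strand, for which no row was analysed here. Both Nt5c2 and Ppat were called across the table in all 14 other settings tried, the 5 libraries titled G alone included. The fit without the filter repeated the main fit, since the filter removed 0 genes. Because both genes were chosen by this difference, these calls describe its stability and support nothing further.

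Of the genes in the whole table, Nt5c2 had the profile most like that of Ppat, by the root mean square difference of mean-centred log2 values over the 7 libraries (0.0743). Slc5a1, a sodium-glucose cotransporter of tubule and gut (0.0797), and Jam2, a junctional adhesion molecule (0.0841), came next. For Nt5c2 the closest was Cdh6, a cadherin (0.0355), followed by Ppat (0.0743) and Samd9l, an interferon-responsive gene (0.0887). Cdh6 was at 10.01, 9.89 and 9.67 in knockdown and at 9.10, 9.08, 9.08 and 9.19 in control libraries, with the same order of the knockdown libraries as Nt5c2. That order was also seen in Prps1 and Gmps, whose groups overlapped. Slc5a1, Jam2, Cdh6 and Samd9l differed by 0.69, 0.54, 0.74 and 0.75 between the groups. Likeness to a gene that differs between the groups selects for such differences. Ppat and Nt5c2 were chosen because both were higher in knockdown, so their likeness to each other supports nothing by itself.

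Among the other 5′-nucleotidases, Nt5e fell. Nt5e encodes CD73, the ecto-5′-nucleotidase that releases adenosine from AMP outside the cell. Nt5e (ENSMUSG00000032420.8; chromosome 9, 88327197 to 88372092, plus strand) was at 11.35, 11.23 and 11.37 in knockdown and at 12.06, 11.77, 11.89 and 11.96 in control libraries. All 3 knockdown libraries lay below all controls. The means were 11.32 ± 0.07 (SD, n = 3) and 11.92 ± 0.12 (SD, n = 4), a difference of -0.60 (SE 0.07; limma, Benjamini-Hochberg adjusted p = 0.00481). It was -0.61 within the libraries titled G, where alone it did not pass (limma, Benjamini-Hochberg adjusted p = 0.0999), and -0.59 within the CB6 pair. None of the other seven nucleotidase and related genes passed: Nt5c, Nt5c3, Nt5c3b, Nt5m, Nt5dc1 and Nt5dc3 differed by -0.04 to 0.16 and Nt5dc2 by -0.48 (limma, Benjamini-Hochberg adjusted p from 0.288 to 0.921). For Nt5m, the mitochondrial nucleotidase, at 0.16, every knockdown library lay above every control, as was the case for 10.8% of all genes. The difference in response between Nt5c2 and Nt5e was not tested as such.

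Of 22 measured genes of purine nucleotide breakdown, Nt5e was the one that passed (1 lower, 0 higher, beside 3.02% of all genes). At an unadjusted p of 0.05 there were 5 lower and 1 higher, where 18.4% of all genes met that p, and the list median was 0.03. Xdh, the xanthine oxidoreductase that makes uric acid, was chosen after its values were seen: it was at 8.91, 8.81 and 8.94 in knockdown and at 9.42, 9.06, 9.41 and 9.31 in control libraries. The groups did not overlap, as for 7 of the 22 genes and 18.4% of all genes (either direction). The difference of -0.41 did not pass (limma, Benjamini-Hochberg adjusted p = 0.0680). Without control replicate 2, its lowest control, Xdh differed by -0.49 and passed (limma, Benjamini-Hochberg adjusted p = 0.0184).

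Of 12 measured salvage genes, 6 had a negative difference, and Slc29a3 alone passed, higher in knockdown (3.02% of all genes passed in either direction). At an unadjusted p of 0.05 there were 2 higher and 1 lower, where 18.4% of all genes met that p. Slc29a3 encodes ENT3, a nucleoside transporter of lysosomes and other inner membranes. Slc29a3 (ENSMUSG00000020100.15; chromosome 10, 60712072 to 60752794, minus strand) was at 12.39, 12.27 and 12.06 in knockdown and at 11.26, 11.67, 11.30 and 11.49 in control libraries. The groups were apart, and the knockdown libraries stood in the same order as for Nt5c2. Prps1 and Gmps, whose groups overlapped, had this order too. The means were 12.24 ± 0.17 (SD, n = 3) and 11.43 ± 0.19 (SD, n = 4), a difference of 0.81 (1.75-fold; SE 0.11; limma, Benjamini-Hochberg adjusted p = 0.00865). It did not pass in the libraries titled G alone or without knockdown replicate 2 (limma, Benjamini-Hochberg adjusted p = 0.0738 and 0.0518). The salvage enzymes Hprt, Adk and Aprt, named after their values were seen, differed by 0.22, 0.10 and -0.02 and did not pass (limma, Benjamini-Hochberg adjusted p = 0.256, 0.528 and 0.947). The list median was -0.01.

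**Figure D3:**
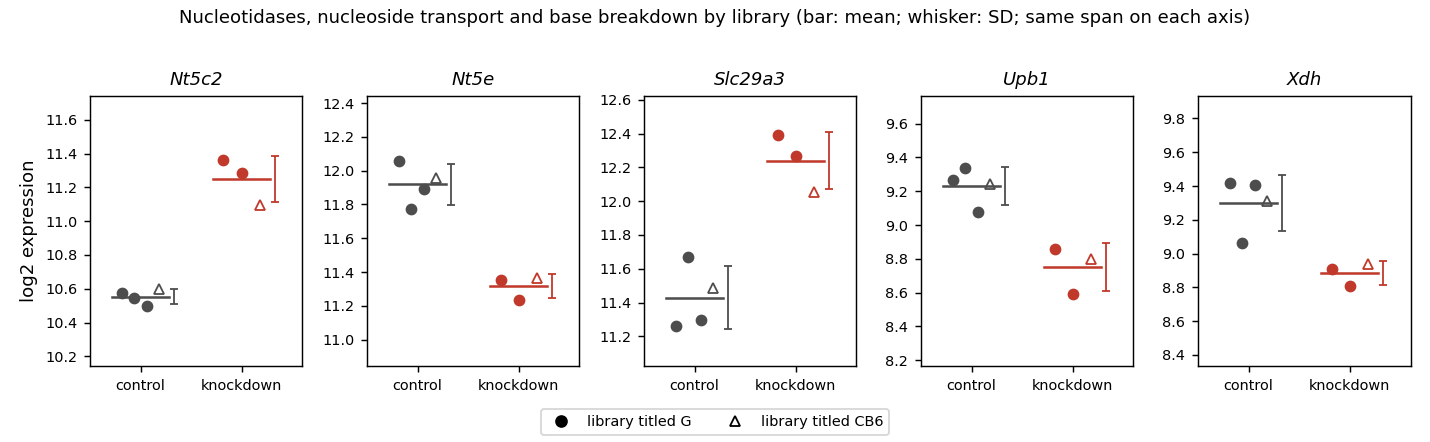
Log2 expression (vertical axis) of Nt5c2, Nt5e, Slc29a3, Upb1 and Xdh in each control and knockdown library, with circles for libraries titled G, triangles for CB6, bars for group means and whiskers for the SD (n = 4 and n = 3). Nt5c2 and Slc29a3 are higher and Nt5e, Upb1 and Xdh lower in knockdown, with no overlap between groups, and Xdh did not pass the test.

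The suppliers of PRPP and one-carbon units showed no gene past the threshold. Of 12 measured genes of PRPP supply and the pentose phosphate pathway none passed (limma), with 1 higher and 0 lower at an unadjusted p of 0.05 (18.4% of all genes). Prps2 and Tkt, the transketolase, which had the highest means, differed by 0.09 and 0.09. Of 24 genes of folate one-carbon metabolism and serine synthesis none passed (limma), with 1 higher and 4 lower at an unadjusted p of 0.05, close to the 18.4% of all genes. Dld, a subunit of the glycine cleavage system and of several dehydrogenases, and Aldh1l1, a folate enzyme, had the highest means and differed by 0.18 and -0.05. Among these lower genes, and named after their values were seen, Shmt2, the mitochondrial serine hydroxymethyltransferase, differed by -0.43, Aldh1l2 by -0.47 and Psat1 of serine synthesis by -0.61 (limma, Benjamini-Hochberg adjusted p = 0.148, 0.0670 and 0.221).

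Of 14 measured genes of the other IMP branch and the purine nucleotide kinases none passed (limma), and none did at an unadjusted p of 0.05. The adenylate kinase family members Ak3 and Ak4, both mitochondrial, differed by 0.03 and -0.23. Of 20 measured genes of pyrimidine synthesis, pyrimidine breakdown and ribonucleotide reductase, 1 passed as lower and 0 as higher (3.02% of all genes in either direction). At an unadjusted p of 0.05 there were 3 lower and 1 higher, where 18.4% of all genes met that p. The gene that passed, Upb1, encodes the last enzyme of pyrimidine base breakdown, a tubule and liver enzyme rather than one of synthesis. Upb1 (ENSMUSG00000033427.14; chromosome 10, 75401115 to 75441679, plus strand) was at 8.86, 8.59 and 8.80 in knockdown and at 9.27, 9.34, 9.07 and 9.25 in control libraries, without overlap. The difference was -0.48 (SE 0.10; limma, Benjamini-Hochberg adjusted p = 0.0374). The call of Upb1 was lost when title style entered the fit, in the libraries titled G alone, and without knockdown replicate 1, 2 or 3 or control replicate 1, 2 or 4, with adjusted p up to 0.315 (limma, Benjamini-Hochberg). The knockdown libraries also had the lower sums of proximal tubule markers (17.17 to 17.53 against 17.54 to 17.94), whose part in the values of Upb1, Nt5e and Xdh was not tested.

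Of 19 measured regulators tied to purine synthesis none passed (limma), with 2 higher and 1 lower at an unadjusted p of 0.05, near the 18.4% of all genes. The kinase Mtor and its inhibitor Tsc2 had the highest means and differed by 0.16 and 0.01. Nrf1 differed by 0.16 and Mitf, which reads E-boxes, by 0.27 (limma, Benjamini-Hochberg adjusted p = 0.518 and 0.0739). Of the MYC genes on the list, Mycl and Mycn differed by -0.46 and -0.20 (limma, Benjamini-Hochberg adjusted p = 0.239 and 0.712). Myc itself was listed but was not among the 19 measured. Mxd1, Mxd4, Mnt and Mlx differed by -0.12, -0.27, -0.06 and -0.13, and Max by 0.13, and none of these passed (limma). Mitf passed without control replicate 2 (0.30; limma, Benjamini-Hochberg adjusted p = 0.0482). Over all 7 lists, 3 of 123 genes passed, 1 higher and 2 lower. That is close to the 3.02% over all genes, and their median was 0.00077 against 0.02 for all genes.

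**Figure D4:**
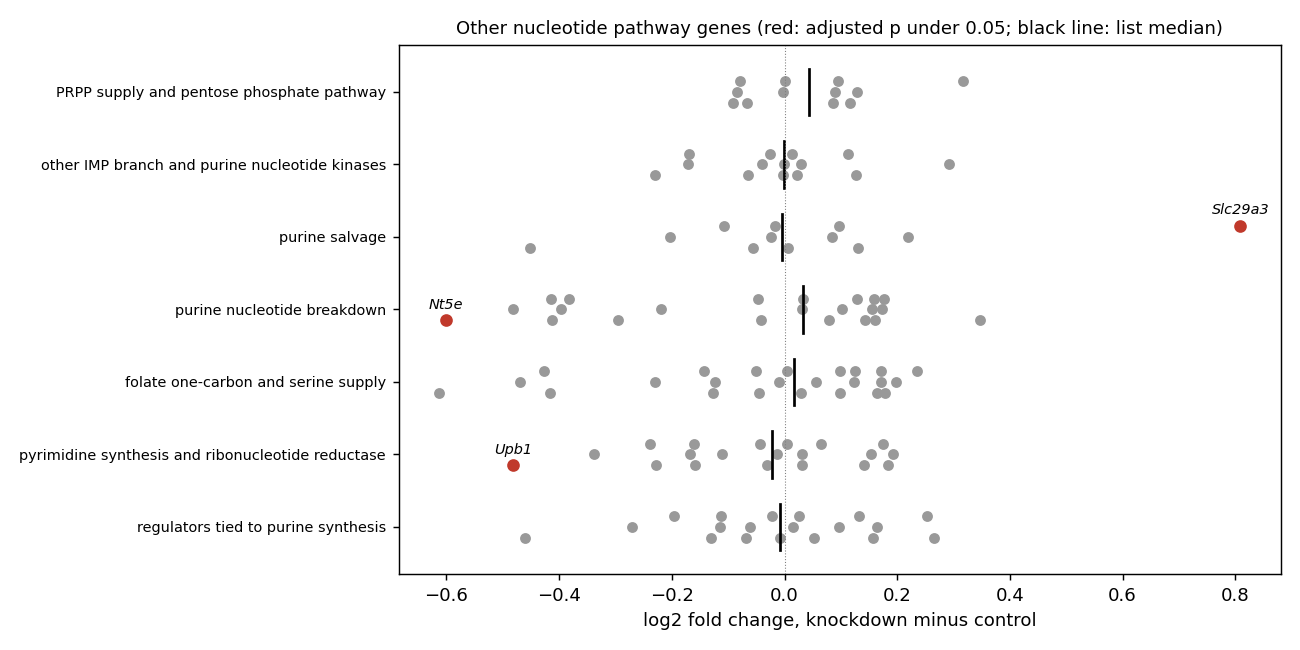
Differences (horizontal axis, log2, knockdown minus control) of 123 other genes in 7 nucleotide pathway lists, 1 point per gene. Red points are the 3 genes past the adjusted threshold, Slc29a3, Nt5e and Upb1, and black lines are list medians, which lie between -0.02 and 0.04.

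Position was examined next, since it had no part in the choice of the 10 genes. Of 58 other measured genes that start within 250 kb of one of them, 1 passed, where 3.02% of all genes did. That gene, Tnrc6b, a scaffold of microRNA silencing near Adsl (chromosome 15, 80711313 to 80941085), rose by 0.22 (SE 0.05; limma, Benjamini-Hochberg adjusted p = 0.0487), while Adsl differed by -0.05. Tnrc6b did not pass in 11 of 14 other settings, among them the leaving out of any library. None of the 3 genes near Ppat and Paics passed (limma). The nearest on either side, Aasdh and Srp72, a subunit of the signal recognition particle, differed by 0.08 and 0.01 beside 0.64 for Ppat and 0.27 for Paics. None of the 8 genes near Nt5c2 passed either (limma), and the nearest with values, the magnesium transporter Cnnm2 and the Polycomb gene Pcgf6, differed by 0.20 and 0.08. Apart from the 10 genes themselves, none of the 11 genes within 250 kb of Ppat and Nt5c2 had an unadjusted p under 0.05 (limma), against 18.4% of all genes. Paics, which overlaps Ppat but is one of the 10, had an unadjusted p of 0.0058 (limma). With a window of 500 kb a second gene passed, Sfxn2, a sideroflexin whose start is 441788 bases from that of Nt5c2 (0.44; limma, Benjamini-Hochberg adjusted p = 0.0291). In that window C530008M17Rik (0.68) and Rest (0.13), near Ppat, had an unadjusted p under 0.05 (limma) but did not pass.

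**Figure D5:**
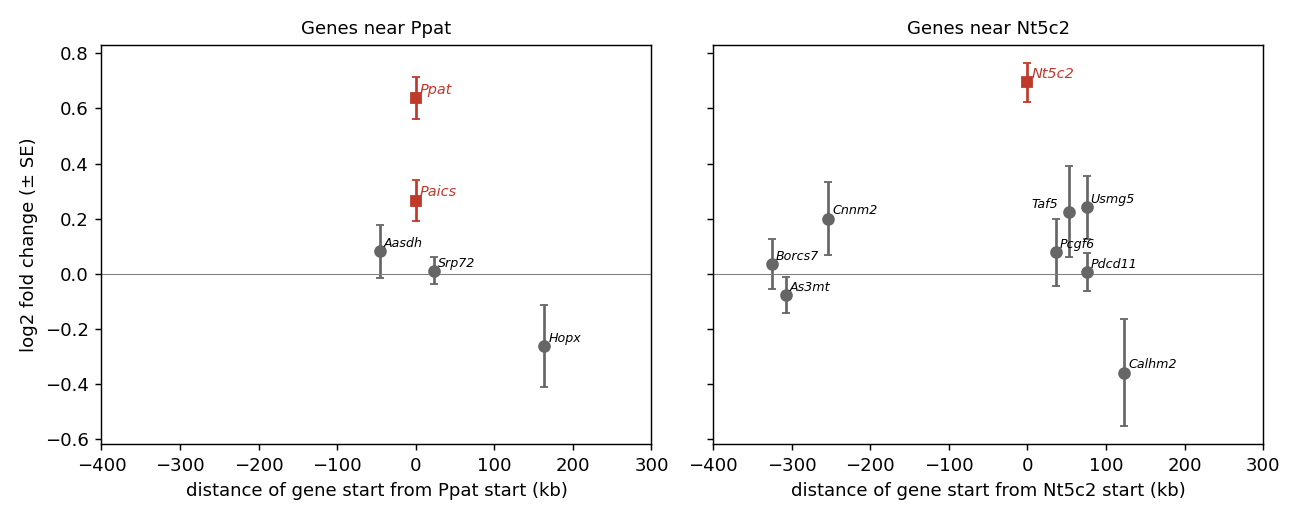
Differences between groups (vertical axis, log2 ± SE) of the genes near Ppat (left) and Nt5c2 (right) against the distance of their starts in kb. Red squares are Ppat, Paics and Nt5c2, grey circles the other measured genes within 250 kb of the gene body, all of which lie below Nt5c2 and Ppat, and none of which passed the test.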

How the data were processed

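The deposited tables, 1 per library, give each symbol a log-scale value, taken as log2 because the authors state no base. Alignment used BWA and the build mm10, per the submitters' processing notes. The counting method, its use of strand and the normalization were not stated. Values identical in every digit occurred for 16 to 137 genes between libraries of the same title style and for 0 between styles, so an adjustment by style before deposit is possible, in which case p-values are too small. Knockdown was compared with control with limma 3.58.1 in R 4.3.3 (intensity trend, Benjamini-Hochberg adjustment over 12958 genes, threshold 0.05, two-sided). The test was checked on simulated data. Requiring at least 3 libraries above the lowest value of the tables removed 0 genes. Intervals are limma's at 95%. Positions are from GENCODE M21 on GRCm38, the build of mm10, which held 12701 symbols. Markers of red cells, immune cells, proliferating cells, smooth muscle and parietal cells were also read, with 1 red cell marker, Alas2, past the threshold and 0 in the other lists; the mesangial list had 1.

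The genes, lists, tests and motifs were chosen with earlier results of these data, and for the motifs the sequences, known. Named are the 10 genes, all list genes past the threshold or the 2 with the highest means, genes near the 10 past the threshold, the nearest neighbours of Ppat and Nt5c2, and their 3 closest profiles. Others are marked as chosen after their values were seen, or complete a family (nucleotidases, Impdh, Prps) or are tied to a motif or start region shown. The other settings were median scaling, quantile normalization, a fit without the filter, one on the more highly expressed genes, one without the trend, one with title style, the libraries titled G alone, each library left out, and a window of 500 kb. The values of 1 further list gene are not reported here.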

Additional observations from a re-analysis of the deposited data

How the results depend on the processing

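The differences of Ppat and Nt5c2 kept their direction in all 14 other settings, from 0.58 to 0.73 and from 0.64 to 0.79, and so did that of Paics (0.23 to 0.35). The fit without the filter repeated the main fit, and every setting drew on the same libraries. Gart moved from -0.06 to -0.087 in the libraries titled G alone, and Prps1 ran from -0.01 to 0.12. The number of genes past the threshold was 191 with title style in the fit and 40 for the libraries titled G by themselves, against 391 with all libraries, and 134 to 480 with a library left out. Lowest were 203, 134 and 147 without knockdown replicates 1, 2 and 3 and 146 without control replicate 4. Of the other pathway genes, 0 passed in the libraries titled G alone, and 1 to 4 with a library left out (1 without knockdown replicate 2). Of the genes near the 10, 0 passed with median scaling, without the intensity trend, with title style, in the libraries titled G alone, and with any library left out (0 to 0), and 2 with the window of 500 kb. The causes were not tested. No paired analysis was possible because the labels give the groups no shared replicate numbers. Depth is unknown, so counting error could not be given.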
